A study of Mus musculus with 45 samples.

Results

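Expression of 3 GABA receptor subunit genes, Gabbr1, Gabrb1 and Gabrg3, was examined in sorted tuft cells of the mouse small intestine, after feeding with a high fat diet (HFD) or a reference fat diet (RFD). The 3 genes were taken by name from the 47729 genes of the deposited read count and TPM tables, with earlier results of these data known. The cells were sorted as live EpCAM+ Siglec-F+ cells. The study's methods write CD45+ for this gate but also state that cells with CD45 were excluded. The mice were male C57BL/6J, arrived at 5 weeks of age and were housed at thermoneutrality, and each of the 45 libraries came from 1 mouse. RFD holds 10% fat and HFD 60% fat. In the set called STF, fed for 9 weeks, there were 11 mice on RFD and 11 on HFD. In the set called LTF there were 11 mice on RFD and 12 on HFD, and 22 weeks of feeding were taken for it from the study's methods, since the labels give 9 weeks for all 45 libraries. The time on diet and the set of libraries cannot be told apart.

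GABA is an inhibitory transmitter that acts on 2 kinds of receptor. The GABA-A receptor is a chloride channel built of several subunits, usually alpha, beta and gamma, and Gabrb1 and Gabrg3 encode a beta and a gamma subunit. The GABA-B receptor is a G protein-coupled receptor in which the Gabbr1 product binds GABA and the Gabbr2 product couples to inhibitory G proteins, which lower cAMP and open potassium channels. Tuft cells are chemosensory epithelial cells that signal to immune cells and nerves, and transcripts of GABA receptor subunits are known in them.

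The sort was checked against 21 tuft cell markers. Of these, 17 had a read in all 45 libraries, Dclk1 and Trpm5 among them, and each of the others had a read in at least 43. RNA of other epithelial cells was present as well, since all 12 enterocyte markers, such as Alpi and Fabp1, 5 of 6 Paneth cell markers and 3 of 7 goblet cell markers had a read in each library. Libraries held 189340 to 4690213 reads on genes, and the number of genes with at least 1 read ranged from 8580 to 22337.

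The 3 genes differ in size and setting, and the bases before their start sites are shown because the genes were compared for shared changes. In GENCODE M21 on GRCm38, Gabbr1 (ENSMUSG00000024462) lies on the plus strand at chr17:37045966-37075067, spans 29102 bases and overlaps no other gene. Gabrb1 (ENSMUSG00000029212), on the plus strand at chr5:71658113-72149037, spans 490925 bases. Its first exon overlaps an exon of Gabra4 on the other strand, where unstranded libraries cannot tell the reads of these genes apart, and 51 reads in all were assigned to Gabra4 against 189 to Gabrb1. Gabrg3 (ENSMUSG00000055026) lies on the minus strand at chr7:56716465-57387188, spans 670724 bases and holds 6 processed pseudogenes in its introns, of which Gm18642 was assigned 106 reads and Gm17984 23. RefSeq promoter windows of build GRCm38.p6 were found for all 3 genes, and the 250 bases upstream of the start are given 5′ to 3′ on the gene's strand, with GC boxes (GGGCGG or, on the other strand, CCGCCC) in capitals. The windows are chr17:37045716-37045965 for Gabbr1, chr5:71657671-71657920 for the first of the 2 starts of Gabrb1, and chr7:57387216-57387465 for Gabrg3.
Gabbr1: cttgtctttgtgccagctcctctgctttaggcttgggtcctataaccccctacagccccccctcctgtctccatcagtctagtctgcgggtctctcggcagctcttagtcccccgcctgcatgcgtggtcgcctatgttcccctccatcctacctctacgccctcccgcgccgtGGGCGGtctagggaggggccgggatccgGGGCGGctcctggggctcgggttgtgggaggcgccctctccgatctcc
Gabrb1: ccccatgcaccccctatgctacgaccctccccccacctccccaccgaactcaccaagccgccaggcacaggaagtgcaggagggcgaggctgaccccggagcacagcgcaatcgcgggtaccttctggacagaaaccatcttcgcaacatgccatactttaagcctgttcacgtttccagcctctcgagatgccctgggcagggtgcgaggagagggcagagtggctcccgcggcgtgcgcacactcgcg
Gabrg3: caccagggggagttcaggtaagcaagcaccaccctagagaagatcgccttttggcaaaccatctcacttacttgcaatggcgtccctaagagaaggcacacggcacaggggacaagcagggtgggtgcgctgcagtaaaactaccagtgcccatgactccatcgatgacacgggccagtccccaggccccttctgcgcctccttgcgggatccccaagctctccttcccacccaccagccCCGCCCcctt
The Gabbr1 window holds 2 GC boxes, the Gabrg3 window 1 and the Gabrb1 window 0, whereas 32.7% of the 32817 windows of the same length hold at least 1. The TATA box letters (TATAAA, either strand), found in 12.4% of all windows, and the octamer letters read by POU factors such as the tuft cell regulator Pou2f3 (ATGCAAAT, either strand), found in 1.60%, had 0 matches in the 3 windows. G and C made up 66% of the bases in the Gabbr1 window, 64.4% in that of Gabrb1 and 60.4% in that of Gabrg3, against a median of 52.4% over all windows. The window of the second Gabrb1 start, not printed, had 50.8%. The bases after that start were found in a transcript of Gabrb1, but those after the printed window were not. The printed Gabrb1 window also lies within the span of Gabra4, chr5:71569749-71658308.

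Gabbr1 was the most abundant of the 3 genes and the one with a lower level on HFD. Gabrb1 and Gabrg3 were found in part of the libraries, at a few reads each, with no difference between the diets past the threshold. Per transcript length, Gabbr1 had a mean of 2.77 TPM ± 2.33 (SD, n = 45 libraries), Gabrg3 0.642 ± 0.990 and Gabrb1 0.215 ± 0.332. In reads, however, Gabrg3 and Gabrb1 had the same total, 189 each. Among the 14020 genes with more than 5 reads in at least 6 libraries, which are the genes tested, Gabbr1 stood at the 36.2th percentile of mean TPM, Gabrg3 at the 7.75th and Gabrb1 at the 0.214th. All 3 genes passed this filter, with more than 5 reads in 33, 14 and 12 libraries for Gabbr1, Gabrg3 and Gabrb1. In the library of mouse 1 on RFD at 9 weeks, 13 Gabrg3 reads stood at 4.04 TPM and 8 Gabrb1 reads at 0.32 TPM.

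**Figure D1:**
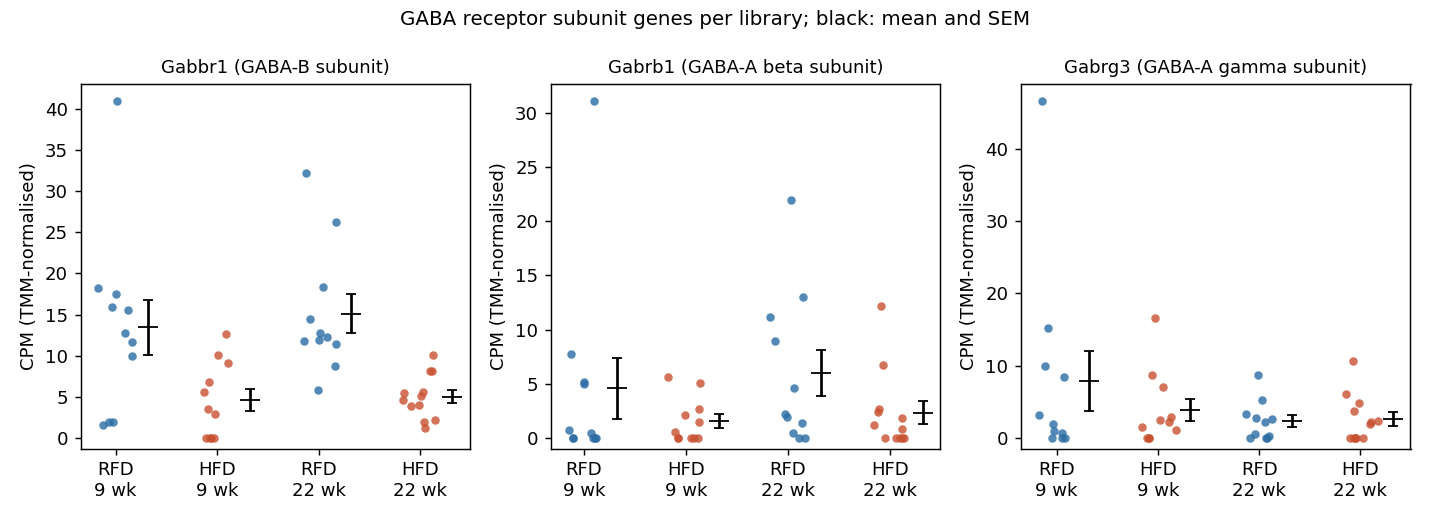
CPM (read count scaled to the TMM-normalised library total) of Gabbr1, Gabrb1 and Gabrg3, with 1 point for each library, by diet and weeks on diet (n = 11 per group, 12 for HFD at 22 weeks). The black mark gives the mean and its SEM. For Gabbr1 at 22 weeks the HFD points lie between 1.24 and 10.0 CPM and the RFD points between 5.79 and 32.3. For Gabrb1 and Gabrg3 many points lie at 0 in each group.

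The level of Gabbr1 at 22 weeks was lower on HFD. In CPM, the read count scaled to the TMM-normalised library total, it ranged on RFD from 5.79 in mouse 1 through a median of 12.3 to 32.3 CPM in mouse 40, with 10 to 44 reads per library. On HFD it ranged from 1.24 CPM in mouse 80 through a median of 4.82 to 10.0 CPM in mouse 31, with 2 to 40 reads. All 12 HFD mice lay below the RFD median and 9 of them below the lowest RFD mouse, while 9 of the 11 RFD mice lay above the highest HFD mouse, so that the groups overlapped in a few mice only. At least 12 HFD mice lay below the RFD median for 1.9% of the tested genes. Mean levels were 15.1 CPM ± 7.79 (SD, n = 11) on RFD and 5.03 ± 2.69 (n = 12) on HFD. The log2 fold change, HFD over RFD, was -1.59 (SE 0.36, 95% interval -2.30 to -0.88), a 3.01-fold lower level, with an adjusted p of 0.0356 (quasi-likelihood test of edgeR, Benjamini-Hochberg adjustment over the 14020 genes). In that comparison 0.728% of the genes passed the threshold of an adjusted p under 0.1, and 0.292% passed it with a lower level on HFD, which 1 of the 3 members, Gabbr1, did. Without mouse 40 on RFD, the highest library, the log2 fold change was -1.40 and the adjusted p 0.117.

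At 9 weeks Gabbr1 showed a difference of like size in these libraries, with a wider spread that did not pass the threshold. The RFD mice ranged from 1.52 CPM in mouse 4 through a median of 12.8 to 41.0 CPM in mouse 22, with 1 to 137 reads. The HFD mice ranged from 0 CPM through a median of 3.53 to 12.6 CPM in mouse 63, with 0 to 30 reads. All 11 HFD mice lay below the RFD median, which 3.11% of the tested genes showed, yet 5 RFD mice lay inside the HFD range, and 3 of these, numbers 4, 10 and 20, were as low as 1.52 to 1.98 CPM. The means were 13.5 CPM ± 11.1 on RFD and 4.61 ± 4.58 on HFD (SD, n = 11 each). The log2 fold change was -1.51 (SE 0.71, 95% interval -2.90 to -0.12), with an unadjusted p of 0.0416 and an adjusted p of 0.255 in edgeR's quasi-likelihood test, where 3.07% of the genes and 0 of the 3 members passed the threshold, 1.24% of the genes with a lower level on HFD. The diet effects at the 2 times differed by -0.03 on the log2 scale (22 minus 9 weeks, SE 0.81, unadjusted p = 0.975 in edgeR, where 0.00713% of the genes passed the threshold), with a standard error that allows a difference in either direction.

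Detection of Gabbr1 by diet did not pass the test at 9 weeks. A read was found in 11 of 11 RFD mice and in 7 of 11 HFD mice, and the 4 mice without one were numbers 6, 8, 70 and 80. Fisher's exact test (two-sided) gave p = 0.0902 and, adjusted over the 6 detection tests, 0.541. At 22 weeks all 23 libraries had a Gabbr1 read. The 4 libraries without a read held 1645156 to 2338023 reads and stood low in tuft markers. Their tuft level, the mean of log2(CPM + 1) over the 21 markers, ran from 3.36 to 6.11, against a range of 5.64 to 9.27 and a median of 8.53 in the 18 libraries of that set with a read. Their Paneth level, the same mean over 6 Paneth cell markers, ran from 10.5 to 15.6, against a range of 2.61 to 13.2 and a median of 9.02 in the other 18.

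Gabbr1 moved with the tuft level from mouse to mouse. At 9 weeks Pearson's r between log2(CPM + 1) of Gabbr1 and the tuft level was 0.76 (adjusted permutation p = 0.00072) and Spearman's rho 0.74 (adjusted p = 0.0022, n = 22), where p-values were adjusted over 12 relations. Without the 2 mice farthest from the median tuft level, r was 0.75. At 22 weeks r was 0.54 (adjusted permutation p = 0.0387) and rho 0.59 (adjusted p = 0.0215, n = 23), and r without the 2 farthest mice was 0.47. Within a diet, rho was 0.65 on RFD and 0.78 on HFD at 9 weeks (n = 11 each), and 0.62 (n = 11) and 0.49 (n = 12) at 22 weeks. The permutation p of these 4 values, adjusted over the 24 relations within diets, was 0.21, 0.174, 0.21 and 0.378. Pearson's r within a diet was 0.51, 0.81, 0.71 and 0.52 in the same order (adjusted permutation p = 0.431, 0.054, 0.146 and 0.372), and without the 2 farthest mice 0.69, 0.84, 0.37 and 0.25, so that 1 of these relations, HFD at 9 weeks, passed the threshold of 0.1. Most mouse numbers fall into 3 series, 1 to 8, multiples of 10, and others from 21 to 64, and the 2 mice outside them, 84 on RFD at 9 weeks and 65 on HFD at 22 weeks, were left out of values within series. Within these rho was 0.74, 0.43 and 0.04 at 9 weeks (n = 7 each) and 0.64, 0.43 and 0.79 at 22 weeks (n = 8, 6 and 8). With Dclk1 alone in place of the 21 markers, rho was 0.78 and r 0.79 at 9 weeks, and rho was 0.24 and r 0.42 at 22 weeks (adjusted permutation p = 0.501 and 0.139).

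**Figure D2:**
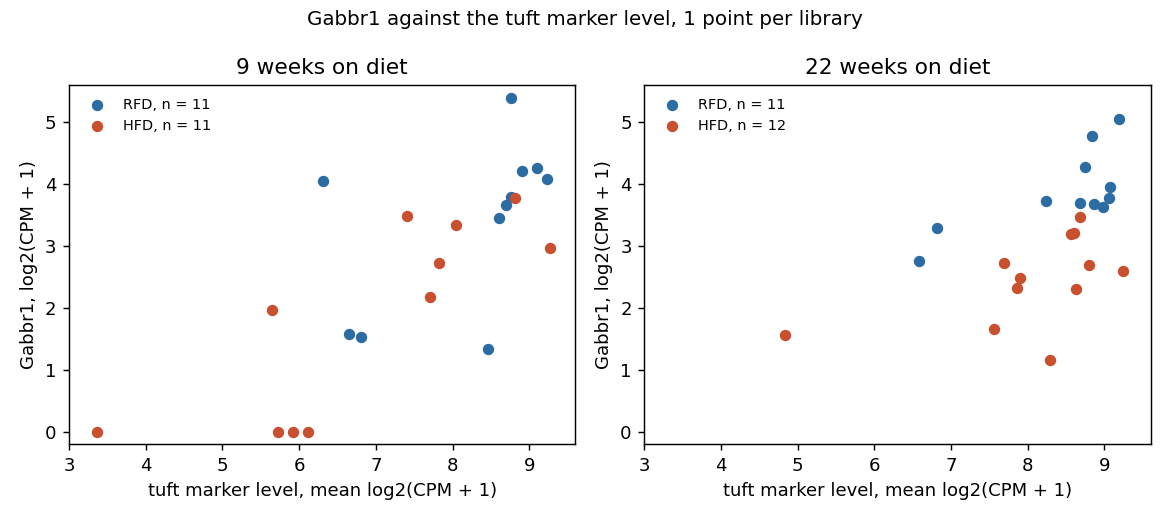
Gabbr1, as log2(CPM + 1), against the tuft level, the mean log2(CPM + 1) of 21 tuft markers, with 1 point for each library at 9 weeks (n = 22) and 22 weeks (n = 23). Points rise from left to right in both panels, with rho of 0.74 and 0.59. At 22 weeks 9 of the 11 RFD points lie above every HFD point.

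The tuft level itself was lower on HFD without passing the test. At 9 weeks it was 8.21 ± 1.07 on RFD and 6.89 ± 1.72 on HFD (SD, n = 11 each), a difference of -1.31 with a permutation p of 0.0414 and, adjusted over 22 tests of marker lists, 0.228. At 22 weeks it was 8.46 ± 0.908 on RFD and 8.05 ± 1.13 on HFD (adjusted permutation p = 0.736). The summed level of the 21 markers ranged from 4581 to 29925 CPM on RFD and from 414 to 28586 CPM on HFD at 9 weeks, and from 4526 to 28296 and from 1288 to 28372 at 22 weeks. The Paneth level at 9 weeks was 8.27 ± 3.26 on RFD and 10.7 ± 3.74 on HFD (SD, adjusted permutation p = 0.333), with a summed level of 57.7 to 110840 CPM on RFD and 113 to 593492 CPM on HFD, and its part in the Gabbr1 difference was not tested. With the tuft level as a covariate in edgeR, the Gabbr1 log2 fold change was -0.57 at 9 weeks (adjusted p = 0.885) and -1.38 at 22 weeks (adjusted p = 0.0389). Fewer tuft cells in the sort and less Gabbr1 RNA per tuft cell cannot be told apart in bulk libraries. Enteroendocrine markers fell on HFD at 22 weeks, from a mean level of 2.53 ± 1.30 to 1.10 ± 0.374 (adjusted permutation p = 0.0466, 20 markers). Of the 19 tested in edgeR, 6 were called lower on HFD, against 0.292% of all tested genes, and the median log2 fold change of the 19 was -3.09. The summed level of these markers ran from 131 to 1162 CPM on RFD and from 77.7 to 325 on HFD. Gabbr1 and that level had r = 0.45 and rho = 0.45 at 22 weeks (adjusted permutation p = 0.133 and 0.0967, r = 0.54 without the 2 farthest mice), but within a diet rho was 0.091 on RFD and -0.13 on HFD, and within the 3 number series 0.12, 0.89 and 0.64. The Gabbr1 log2 fold change with it as a covariate was -1.53 (adjusted p = 0.0563 in edgeR). The level of 11 T cell markers at 22 weeks was 1.07 ± 0.944 on RFD and 0.455 ± 0.635 on HFD (summed 0 to 118 and 0 to 58.0 CPM, adjusted permutation p = 0.288), and with them as a covariate the Gabbr1 call was lost (log2 fold change -1.49, adjusted p = 0.120 in edgeR).

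Within the 3 number series the Gabbr1 difference had the same sign. HFD minus RFD of the mean log2(CPM + 1) was -1.30, -1.22 and -1.41 at 9 weeks, and -1.13, -2.11 and -1.18 at 22 weeks, from 3 or 4 mice per diet in each. With the series as a term in edgeR, the log2 fold change was -1.52 at 22 weeks (adjusted p = 0.0451) and -1.20 at 9 weeks (adjusted p = 0.431).

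Gabrb1 had few reads in every group. On RFD at 9 weeks it ranged from 0 through a median of 0.495 to 31.1 CPM, with 0 to 12 reads, and the highest value rests on 4 reads in the shallowest library, that of mouse 40 with 189340 reads. On HFD at 9 weeks the range was 0 through 0.523 to 5.59 CPM, with 0 to 9 reads. On RFD at 22 weeks it ranged from 0 through 2.20 to 21.9 CPM, with up to 30 reads in mouse 21, and on HFD at 22 weeks from 0 through 1.01 to 12.2 CPM, with up to 16 reads in mouse 8. The diets overlapped at both times, since 5 of 11 HFD mice at 9 weeks and 8 of 12 at 22 weeks lay below the RFD median. The log2 fold change was -0.997 (SE 1.16, 95% interval -3.28 to 1.28, adjusted p = 0.700) at 9 weeks and -1.38 (SE 0.90, 95% interval -3.14 to 0.39, adjusted p = 0.631) at 22 weeks in edgeR, with intervals that reach from a several-fold lower level to a higher one. Without mouse 40 on RFD the value at 9 weeks was -0.23, and without both libraries under 500000 reads -0.14. At 22 weeks it was -0.91 without mouse 21 on RFD and -2.08 without mouse 8 on HFD. A read was found in 6 of 11 mice on each diet at 9 weeks, and in 9 of 11 on RFD and 7 of 12 on HFD at 22 weeks (Fisher's exact test, adjusted p = 1 at both times).

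Gabrg3, a gamma subunit gene, had a like low level. On RFD at 9 weeks it ranged from 0 through a median of 1.90 to 46.7 CPM, with the highest value from 6 reads, again in mouse 40, and on HFD from 0 through 2.14 to 16.6 CPM, with 31 reads in mouse 5. On RFD at 22 weeks the range was 0 through 2.20 to 8.77 CPM and on HFD 0 through 2.10 to 10.7 CPM, with at most 12 reads. The diets overlapped at both times, and 5 of 11 HFD mice at 9 weeks and 6 of 12 at 22 weeks lay below the RFD median. The log2 fold change was -0.66 (SE 1.05, 95% interval -2.72 to 1.41, adjusted p = 0.799) at 9 weeks and 0.12 (SE 0.93, 95% interval -1.70 to 1.93, adjusted p = 0.979) at 22 weeks in edgeR. At 9 weeks it was -0.025 without mouse 40 on RFD and -1.34 without mouse 5 on HFD. A read was found in 8 of 11 mice on each diet at 9 weeks, and in 8 of 11 on RFD and 7 of 12 on HFD at 22 weeks (Fisher's exact test, adjusted p = 1 at both times). For Gabrb1 and Gabrg3 the diet effects at the 2 times differed by -0.42 (SE 1.504) and 0.87 (SE 1.45) on the log2 scale (unadjusted p = 0.782 and 0.553 in edgeR).

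Reads of Gabrb1 and Gabrg3 were mostly found in the same libraries. Both genes had a read in 24 of the 45 libraries, neither in 10, Gabrb1 alone in 4 and Gabrg3 alone in 7. Across mice their CPM had a rho of 0.63 at 9 weeks (n = 22) and 0.55 at 22 weeks (n = 23), and Gabbr1 with Gabrg3 a rho of -0.092 and -0.0066. These values share libraries and depth and are given as a description. In contrast to Gabbr1, neither moved with the tuft level in a way that passed the test, with rho of 0.0089 and 0.16 for Gabrb1 and of -0.33 and -0.084 for Gabrg3 at 9 and 22 weeks (adjusted permutation p of 0.969, 0.631, 0.261 and 0.767). Pearson's r was 0.040 and 0.30 for Gabrb1 and -0.22 and -0.096 for Gabrg3 (adjusted permutation p of 0.858, 0.417, 0.595 and 0.745). Within a diet, rho of Gabrg3 with the tuft level was -0.68 on RFD and -0.20 on HFD at 9 weeks, and 0.23 and -0.58 at 22 weeks. The permutation p of these, adjusted over the 24 relations within diets, was 0.206, 0.883, 0.856 and 0.210. Gabrb1 and the enteroendocrine level had a rho of 0.53 at 22 weeks (adjusted permutation p = 0.0429), but Pearson's r was 0.37 (adjusted permutation p = 0.258, r = 0.42 without the 2 farthest mice). Split by number series, rho was 0.63, 0.94 and 0.50, and within a diet rho was 0.29 on RFD and 0.41 on HFD.

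Both genes were found less in the deeper libraries. Of the 11 libraries with the most reads, 2376019 to 4690213, a Gabrb1 read was found in 2 and a Gabrg3 read in 3, with 6 and 7 reads in all. Of the 11 libraries with the fewest reads, 189340 to 1155792, a Gabrb1 read was found in 7 and a Gabrg3 read in 9, with 45 and 51 reads in all. Gabbr1 had a read in 11 of 11 libraries in both sets, with 63 reads in the shallow and 420 in the deep one. Spearman's rho between the number of reads of the gene and the total was -0.51 at 9 weeks and -0.39 at 22 weeks for Gabrb1, -0.68 and -0.36 for Gabrg3, and 0.38 and 0.52 for Gabbr1. The deeper libraries held fewer genes with a read (rho of -0.55 and -0.50 between the total and that number). With the number of genes detected, log2(CPM + 1) of Gabrb1 had r = 0.56 and rho = 0.66 at 9 weeks (adjusted permutation p = 0.0096 and 0.0034) and r = 0.80 and rho = 0.91 at 22 weeks (adjusted permutation p = 6e-05 for both, from an unadjusted 1e-05, the smallest that 100000 permutations can give), and r without the 2 farthest mice was 0.54 and 0.89. For Gabrg3 r was 0.59 and rho 0.66 at 9 weeks (adjusted permutation p = 0.0087 and 0.0034), and 0.58 and 0.55 at 22 weeks (adjusted permutation p = 0.0087 and 0.0155), with r of 0.51 and 0.53 without the 2 farthest mice. Within the 3 number series these rho ran from -0.039 to 0.74 for the 2 genes at both times. With total reads, r was -0.57 and -0.55 and rho -0.59 and -0.52 for Gabrb1 at 9 and 22 weeks, and r was -0.82 and -0.58 and rho -0.84 and -0.48 for Gabrg3, with adjusted permutation p from 6e-05 to 0.0321, r without the 2 farthest mice from -0.81 to -0.51 and rho within series from -0.93 to -0.096. A read is worth more CPM in a shallow library. Gabbr1 had a rho of 0.45 with the number of genes detected at 22 weeks (adjusted permutation p = 0.0426), but r was 0.28 (adjusted permutation p = 0.259). The number of genes detected was chosen for this comparison after the data had been seen, and p-values were adjusted over 12 relations with total reads and that number. Its part in the diet comparison was not tested beyond a fit with it as a covariate, in which Gabrb1 had log2 fold changes of -1.76 and -0.53 at 9 and 22 weeks, and Gabrg3 of -1.05 and 0.99 (adjusted p of 0.381, 0.802, 0.602 and 0.650 in edgeR).

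**Figure D3:**
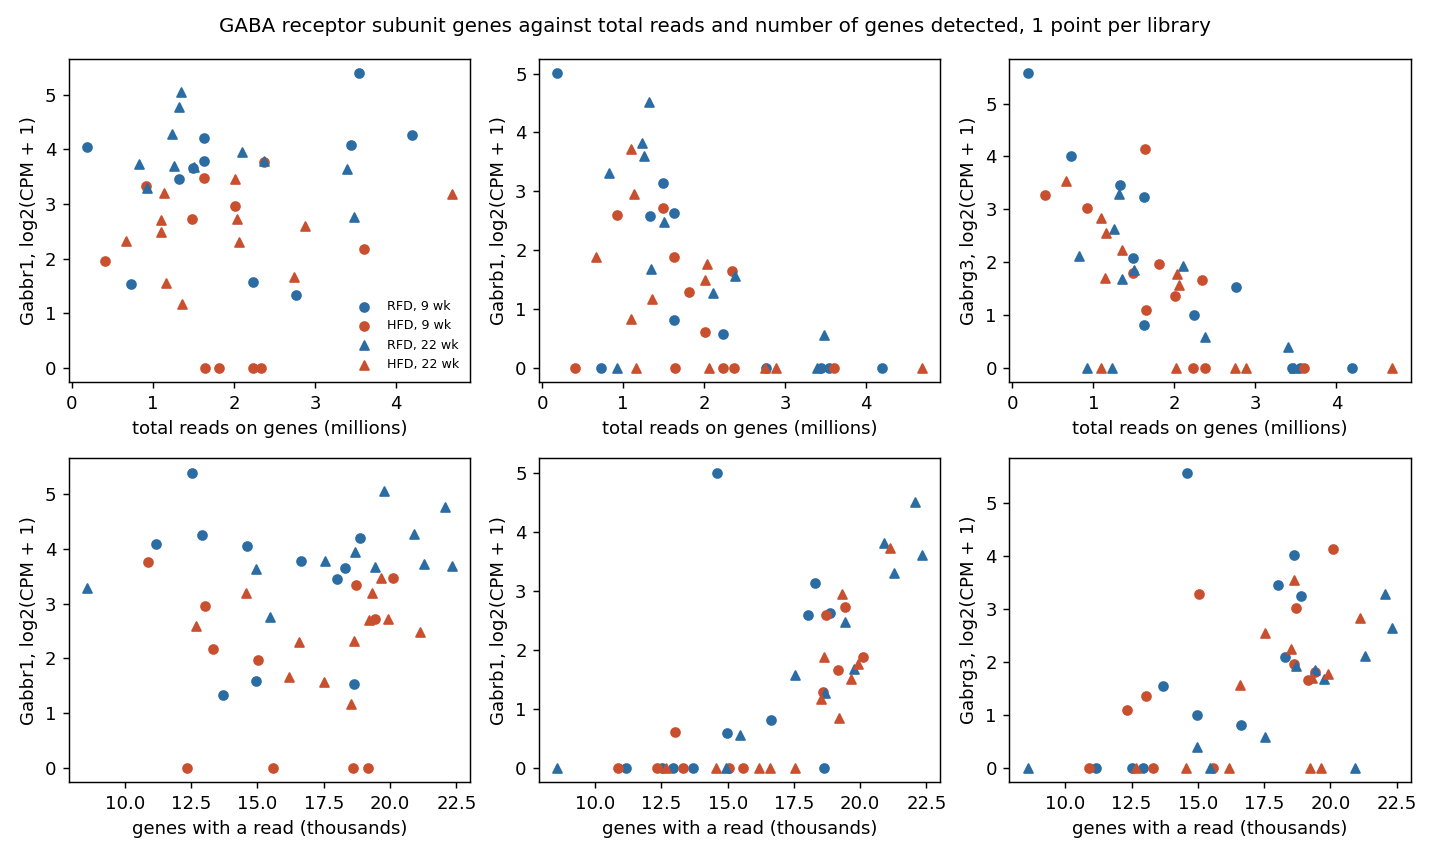
Log2(CPM + 1) of Gabbr1, Gabrb1 and Gabrg3 (columns) against total reads (upper row) and the number of genes with a read (lower row), with 1 point for each of the 45 libraries, coloured by diet and shaped by weeks on diet. Of the 11 deepest libraries, 2 have a Gabrb1 read, 3 a Gabrg3 read and 11 a Gabbr1 read, and Gabrb1 and Gabrg3 rise with the number of genes detected.

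The order of the 4 group levels was not resolved between neighbours for any of the 3 genes. On the mean of log2(CPM + 1), Gabbr1 was highest on RFD at 22 weeks (3.87), followed by RFD at 9 weeks (3.40), HFD at 22 weeks (2.45) and HFD at 9 weeks (1.86), so that both RFD groups stood above both HFD groups. The step from the lower RFD to the higher HFD group was 0.95 (permutation p = 0.0432, adjusted over 9 steps 0.389), and the other 2 steps were 0.48 and 0.59 (adjusted p = 0.695 for both). Gabrb1 had the order RFD at 22 weeks (2.07), RFD at 9 weeks (1.34), HFD at 22 weeks (1.151) and HFD at 9 weeks (0.98). Gabrg3 had RFD at 9 weeks (1.97), HFD at 9 weeks (1.66), HFD at 22 weeks (1.35) and RFD at 22 weeks (1.31). The adjusted permutation p of the steps ran from 0.695 to 0.946 in these 2 genes.

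The genes most like each member from mouse to mouse were sought among the 14020 tested genes, by Spearman's rho of log2(CPM + 1) after each group's mean was taken off (45 libraries). For Gabbr1 the 5 highest were Srpx2 (0.78), Ankrd11 (0.77), 1810046K07Rik (0.77), Ccnj (0.74) and Gprc5c (0.74). Srpx2 encodes a secreted sushi repeat protein, Ankrd11 a chromatin regulator, Ccnj a cyclin and Gprc5c an orphan G protein-coupled receptor. The 21 tuft markers had a median rho of 0.67 with Gabbr1, against 0.01 over all tested genes. For Gabrb1 the highest were Tlr4, the receptor for lipopolysaccharide (0.81), and 4 predicted genes and clones, Gm43317, G630016G05Rik, Gm44723 and Gm884 (0.78 to 0.79). For Gabrg3 they were Gm16579 (0.84), Igsf10 (0.83), the xylosyltransferase gene Gxylt2 (0.83), Dlg2, which encodes a postsynaptic scaffold protein (0.81), and Duxf3 (0.81). The genes nearest to Gabrb1 and Gabrg3 had a read in 24 to 39 of the 45 libraries, and the tuft markers had a median rho of 0.05 with Gabrb1 and -0.28 with Gabrg3. Gabrb1 and Gabrg3 also rose with the number of genes detected, which was not taken off here. The part of that number in these likenesses was not tested. Of 10 neuron and glia markers, each had a read in 7 to 26 libraries, and their summed level was at most 33.3 CPM.

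The partners of the 3 genes were taken from lists of the GABA pathway. Among the GABA-A subunit genes, Gabrd, the delta subunit gene, had a mean of 0.842 TPM, with a read in 32 of the 45 libraries. Its log2 fold change was 1.56 at 9 weeks (SE 0.999, adjusted p = 0.420 in edgeR) and 0.79 at 22 weeks (SE 0.778, adjusted p = 0.783). Gabrr2, a rho subunit gene, had 0.698 TPM, with a read in 15 libraries, and did not pass the filter.

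The partner that Gabbr1 needs at the cell surface was hardly found. Gabbr2 had 45 reads in all, at least 1 in 18 of the 45 libraries, a mean of 0.288 TPM and did not pass the filter. It had a read in 3 of 11 mice in each of the RFD groups and the HFD group at 9 weeks, and in 9 of 12 on HFD at 22 weeks. Of the 9 genes of GABA-B subunits and partners, 3 were tested. Of these, 0 were called at 9 weeks and 1 at 22 weeks, Gabbr1 itself, where 3.07% and 0.728% of all tested genes were. Kctd12, an auxiliary subunit of the GABA-B receptor, stood at 39.2 TPM with a log2 fold change of -0.74 and -0.19 (adjusted p = 0.295 and 0.894 in edgeR), and App, whose product binds Gabbr1, at 18.4 TPM with 0.08 and -0.09. Pianp stood at 0.483 TPM.

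Among 13 tested genes for effectors of the GABA-B receptor, of 19 listed, 1 was called lower on HFD at each time by edgeR. Of all tested genes, 1.24% and 0.292% were called lower. By sign alone, 11 of the 13 were lower on HFD at 9 weeks and 7 at 22 weeks. The same held for 7386 and 7303 of the 14020 genes tested. Adcy9, an adenylyl cyclase, fell at 9 weeks by 1.94 on the log2 scale (SE 0.48, adjusted p = 0.0624 in edgeR), and Adcy6, another, fell at 22 weeks by 0.85 (SE 0.17, adjusted p = 0.0203), from 75.9 CPM ± 21.01 to 42.7 ± 7.23 (SD). Adcy5 had -0.99 and -1.02 (adjusted p = 0.187 and 0.252) and the potassium channel gene Kcnj16 0.05 and 0.44. The median log2 fold change of the 13 was -0.61 at 9 weeks and -0.04 at 22 weeks, against -0.05 and -0.03 over all tested genes. Of 13 tested genes for G protein subunits, 0 were called at either time by edgeR (1 and 1 with an unadjusted p under 0.05, against 18.2% and 10.3% of all tested genes), and the 4 most abundant, Gng5, Gng12, Gng13 and Gnb1, had log2 fold changes from -0.31 to 0.31. Of 12 tested genes for GABA-A receptor scaffolds and trafficking, 1 was called at 9 weeks and 0 at 22 weeks by edgeR (4 and 1 with an unadjusted p under 0.05), where 3.07% and 0.728% of all tested genes were. It was Gabarapl2, a relative of the receptor-associated protein Gabarap, with a log2 fold change of -1.01 at 9 weeks (adjusted p = 0.0973) and -0.69 at 22 weeks (adjusted p = 0.297). Gabarap, Nsf and Trak1 had -0.61, -0.59 and -1.153 at 9 weeks (adjusted p of 0.208, 0.209 and 0.253). Of the 3 tested genes for the supply and breakdown of GABA, 0 were called by edgeR (1 at 9 weeks and 0 at 22 weeks with an unadjusted p under 0.05). Abat, which breaks GABA down, had log2 fold changes of 1.00 and 0.38, and Aldh5a1, which acts on its product, of 0.92 and -0.45. The transporter gene Slc6a13 stood at 1.20 TPM.

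**Figure D4:**
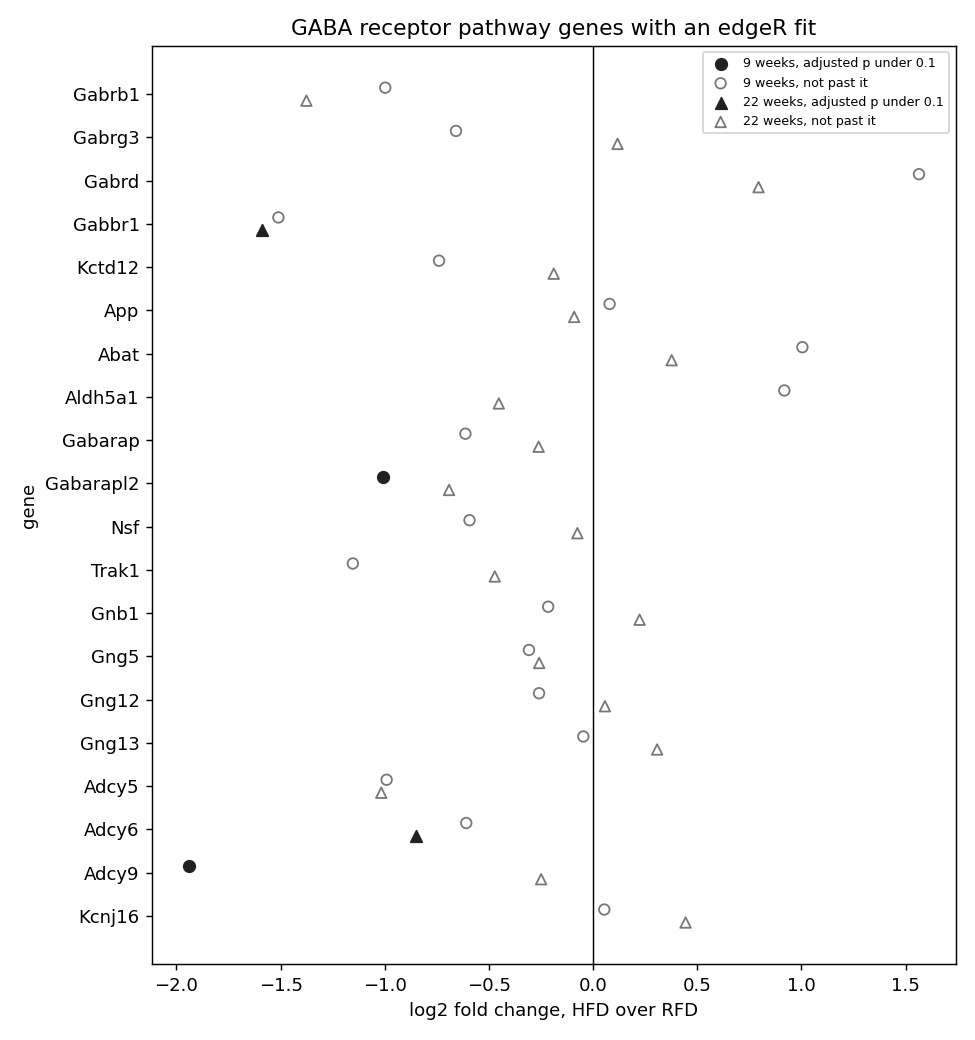
Log2 fold change, HFD over RFD, of named GABA pathway genes with an edgeR fit at 9 weeks (circles) and 22 weeks (triangles). Filled marks have an adjusted p under 0.1, and these are Gabarapl2 and Adcy9 at 9 weeks and Gabbr1 and Adcy6 at 22 weeks, all with a lower level on HFD.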

How the data were processed

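Tuft cells were sorted from 1 mouse per library, and RNA was amplified with Smart-seq2 and sequenced as paired ends from Nextera XT libraries. Per the labels and the study's methods, the authors trimmed reads with Cutadapt 1.15, aligned them with STAR 2.6.0 to GRCm38 and quantified genes with RSEM, which gave the deposited expected counts and TPM per gene. Of the counts above 0, 8.79% were not whole, since RSEM divides reads between genes and transcripts. The cell type weights that the authors applied were not repeated here, FPKM tables were not used, and 24 columns of each kind of table match no sample and were left out.

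Gene symbols came from GENCODE M21. Expected counts were rounded, genes with more than 5 reads in at least 6 libraries were kept, and diets were compared in each set, and across both by an interaction, with edgeR 4.0.16 (TMM, quasi-likelihood test, Benjamini-Hochberg adjustment, threshold 0.1) in R 4.3.3. The standard error is the fold change divided by the root of F. CPM uses TMM over all 45 libraries. Permutation tests are two-sided with 100000 resamples (scipy 1.17.1 and numpy 2.4.6), and Fisher's exact test is two-sided. Alternatives used DESeq2 1.42.0 and limma 3.58.1. The fits were tested on simulated data with a smaller spread between libraries than these data have. Only genes with higher counts were changed there, so that test cannot speak for genes with a few reads per library. Total reads of 189340 to 4690213 set the precision, and 3 reads stand for 23.3 CPM in the shallowest library and 0.609 CPM in the deepest, which covers counting error only. The members and gene lists were chosen with earlier results of these data known. Named genes are the 3 members, Gabbr2, called genes of the pathway lists, up to 4 genes of highest mean TPM in each list and the 5 genes most like each member, and some genes that the rule names are not reported here. All p-values measure the spread between mice, whose day and cage the labels do not give. Per the study's methods, mice were housed 4 to a cage and terminated over 3 days, 1 cage of each group per day. The tests took mice of the same cage as independent.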

Additional observations from a re-analysis of the deposited data

How the results depend on the processing

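The direction of the Gabbr1 difference, lower on HFD, held in all 14 other settings and in each leave-out at both times. At 22 weeks, however, the setting without libraries under 500000 reads repeated the main fit, since the smallest library held 661598 reads. At 22 weeks its call was lost with limma on log2(TPM + 1) (log2 fold change -1.03, adjusted p = 0.143) and log2(TPM + 0.1) (-1.50, 0.249), with no filter on low counts (-1.49, 0.120), with T cell markers as a covariate (-1.49, 0.120) and without RFD mouse 40. Leaving out each library gave -1.72 to -1.40, with adjusted p from 0.0126 to 0.117. At 9 weeks leaving out each library gave -1.80 to -1.15 (adjusted p from 0.157 to 0.439). For Gabrb1 these ranges were -1.42 to -0.23 at 9 weeks and -2.08 to -0.91 at 22 weeks, and for Gabrg3 -1.34 to -0.02 and -0.28 to 0.58. At 22 weeks Gabrg3 turned negative with the number series as a term (-0.11), tuft markers (-0.14) and T cell markers (-0.12) as covariates, and its detection difference turned to 3.79 percentage points at a minimum of 3 reads. The Gabrb1 step from RFD at 9 weeks to HFD at 22 weeks turned to -0.18 without libraries under 500000 reads, and the Gabrg3 step from HFD to RFD at 22 weeks to -0.18 with a pseudocount of 0.1. With Dclk1 alone, the relation of Gabbr1 to the tuft level at 22 weeks fell to a rho of 0.24. The causes were not tested.

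The interaction of Gabbr1 turned to 0.32 with limma on log2(TPM + 0.1) and 0.14 with enterocyte markers, that of Gabrb1 to 1.19 with the number of genes detected, and leave-outs gave -0.40 to 0.27 for Gabbr1, -1.14 to 0.072 for Gabrb1 and 0.11 to 1.56 for Gabrg3. Mouse numbers are shared between the sets but name different mice. Deviations of same-numbered mice correlated from -0.38 to 0.38 over 16 pairs (median -0.16), 2 of them over 0.1. Mice of unlike numbers were not compared, so these values cannot show whether the numbers carry a pairing. With the replicate block by mouse number the interaction was 1.23 for Gabbr1, -4.16 for Gabrb1 and -0.88 for Gabrg3, with 0 genes called.

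The count of genes called over the whole table, 431 at 9 weeks, was 1534 with DESeq2's Wald test, 9 and 5 with limma (pseudocount 1 and 0.1), 260 without the filter, 17, 1510 and 34 with tuft, enterocyte and T cell markers, 254 without libraries under 500000 reads, and 48 (without HFD mouse 6) to 2004 (without HFD mouse 64) by leave-outs, 17 of 22 of which moved it by over 1.5 times. At 22 weeks the count of 102 was 351, 51 and 31 with the same tools, 163 with the number series, 174, 1228 and 43 with tuft, enteroendocrine and T cell markers, 162 with the number of genes detected, and 63 to 649 by leave-outs, where those without RFD mice 1, 3, 10 and 40 moved it by over 1.5 times. For the interaction, 1 gene was called, 68 without the filter, 14 with the number of genes detected, 0 with DESeq2's Wald test, limma, the number series, tuft or enteroendocrine markers, a robust fit or no library under 500000 reads, and 0 to 3 by leave-outs. The robust fit, the number of genes detected and the steps without shallow libraries were chosen after the data had been seen. For the diet effects, DESeq2's Wald test gave no adjusted p for Gabbr1 at 9 weeks or for Gabrb1 and Gabrg3 at either time. With a few reads per library, little can be said of Gabrb1 and Gabrg3, and the deeper libraries held fewer of their reads.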
